A study of Mus musculus with 3 samples.

Results

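The interferon response genes studied here are 38 genes that cells switch on when they meet interferons, the secreted proteins by which cells answer viruses and other danger. They were chosen by name, as probes of an Agilent mouse array whose gene name is one of the 38 members, and all 38 were found, with 60 probes among the 32729 that could be tied to 1 of 19862 genes. The array was hybridised with RNA of mPTECs, the labels' abbreviation for the cells, which were taken from the kidneys of male mice aged 1 month. Cells straight after isolation (day 0) were compared with cells kept on culture dishes for 1 or 3 days in DMEM/F12 medium, which held insulin, transferrin, selenium, non-essential amino acids, 0.1 µM hydrocortisone, penicillin, streptomycin and 1% foetal bovine serum. Each day was represented by 1 sample on 1 array, so there is no spread between samples, no test was made, and every difference below describes these 3 arrays.

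Type I interferons (the alpha family and beta) bind 1 receptor pair on nearly every cell and activate a complex that holds Stat2 and Irf9 and binds a DNA element called the ISRE. Interferon gamma, made mainly by T and NK cells, binds another receptor and acts through an element called GAS. Many genes answer to both. Here 29 members were counted as type I targets and 9 as gamma-type targets (Irf1, the GTPase genes Gbp2, Gbp3, Igtp, Iigp1 and Irgm1, and the antigen processing genes Tap1, Psmb8 and Psmb9), by the interferon each is best known to answer to.

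Signals are given as the spot's processed signal divided by the 75th percentile of its array, called the scaled signal below, and differences between days as folds or log2 ratios of it. A difference was counted from 2-fold, a log2 ratio of 1. Repeat spots of 1 probe scattered on an array by 0.15 (log2, median SD), from which a ratio of 2 arrays scatters by 1.15-fold. The log2 ratios of separate probes for 1 gene scattered more, by 0.36 for day 1 over day 0, 0.50 for day 3 over day 0 and 0.29 for day 3 over day 1 (median SD). In 37 of the 38 members the probe used, the brightest of the gene, was well above background on all 3 arrays, the exception being Oas1g on day 0.

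As a group, the members were higher on day 1 than on day 0 and lower again on day 3 than on day 1. On day 1, 25 of the 38 (65.8%) were at least 2-fold higher than on day 0 and 2 (5.26%) were at least 2-fold lower, against 13.5% higher and 15.3% lower among all 18910 genes measured. The median log2 ratio of the members was 1.30, against -0.11 for all genes. In such bulk samples, fewer cells of a type and less RNA per cell cannot be told apart. Counted from 4-fold, 12 members were higher and 2 lower, against 3.37% and 5.15% of all genes. From day 1 to day 3, 23 members (60.5%) were lower by 2-fold or more and 0 were higher by as much, against 8.07% lower and 6.96% higher among all genes, and the median log2 ratio was -1.30. At 4-fold these counts were 6 and 0, against 1.27% and 1.62%. On day 3, 8 members stood at least 2-fold above day 0, 5 at least 2-fold below it and 25 within 2-fold of it, among them 9 that were within 2-fold on day 1 too. Among all genes 16.5% were higher and 21.4% lower, and 11858 of 19106 were within 2-fold, so the members' share within 2-fold is near the background. At 4-fold 5 members were higher and 2 lower, against 5.32% and 7.81% of all genes. The members' median log2 ratio of day 3 over day 0 was -0.05, a value that takes the other sign with scaling to the median (0.26), to spike-in controls (0.38) or by quantiles (0.15).

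The scaling sets how many genes of the whole array count as higher. Higher genes made up 47.0% of all 2-fold calls for day 1 over day 0, but 59.9% with scaling to the median, 57.3% with spike-in scaling and 22.7% with scaling to reference genes. For day 3 over day 0 the share was 43.5%, with 59.3% and 65.3% under the first pair of these, and for day 3 over day 1 it was 46.3%, with 68.0% under spike-in scaling. These scalings move every log2 ratio of a comparison by 1 amount, for day 1 over day 0 by 0.21, 0.16 and -0.41, and for day 3 over day 0 by 0.31, 0.43 and -0.17. Scaled to reference genes, 16 members were at least 2-fold higher on day 1, against 7.72% of all genes.

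**Figure D1:**
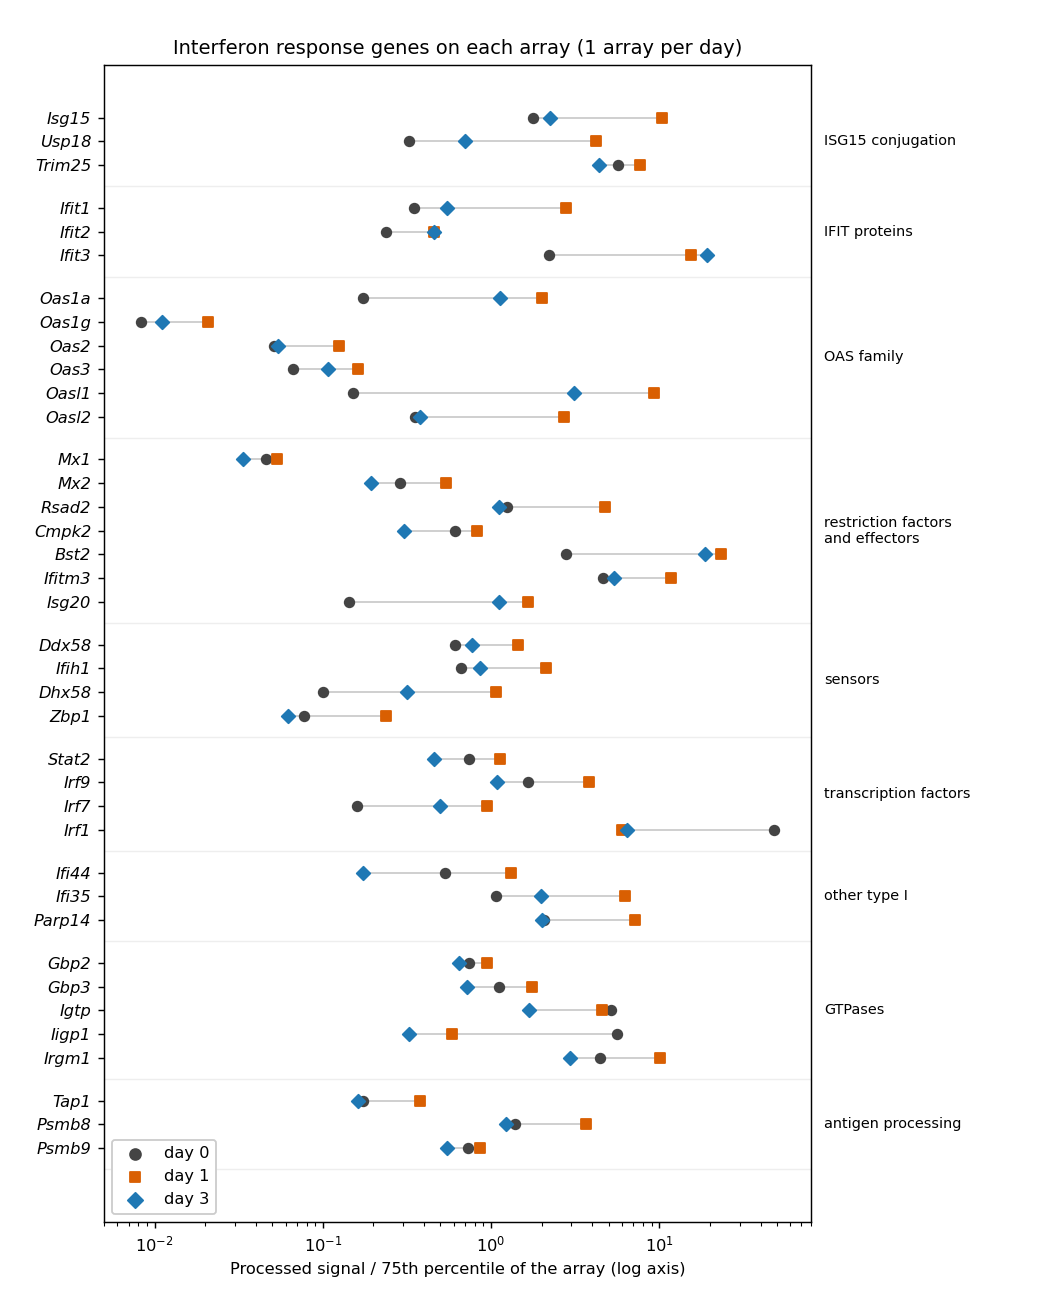
Scaled signal (processed signal over the array's 75th percentile, log axis) of the 38 members on the arrays of day 0 (circles), day 1 (squares) and day 3 (diamonds), by role, with 1 array per day and a grey line over each member's range. The day 1 square lies to the right of both other symbols for most members, while Irf1, Iigp1 and Igtp are highest on day 0 and Ifit3 and Ifit2 on day 3.

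The return by day 3 was counted among members that had been higher on day 1. Of the 25 members at least 2-fold higher on day 1, 24 had a lower scaled signal on day 3 than on day 1, the exception being Ifit3. So had 1324 (51.9%) of all 2551 genes that were at least 2-fold higher on day 1. In 18 of the 25 (72.0%) the day 3 signal was at least 2-fold below that of day 1. In 15 of these 18 (60% of the 25) it was also less than 2-fold above day 0. These 15 were Isg15, Ifit1, Oas2, Oasl2, Rsad2, Ifitm3, Ifih1, Zbp1, Irf9, Ifi44, Ifi35, Parp14, Irgm1, Tap1 and Psmb8. Some of them depend on the setting, but not all of the 11 other settings tried could change a result. The deposited value table repeats the scaled signal within 0.001, and leaving out the filter alters only probes not well above background. In a member with 1 probe, the mean and the dimmest probe are the probe already used. Oas2, Ifi44 and Irgm1 were at least 2-fold higher on day 1 in 7, 8 and 8 of 11 other settings. Tap1 was at least 2-fold below day 1 in 8, and Ifi35 at least 2-fold above day 0 on day 3 in 4. Usp18, Oasl1 and Dhx58 were at least 2-fold below day 1 but still at least 2-fold above day 0, for Usp18 in 8 of 11 other settings and for Dhx58 in 10. The other 7, Ifit3, Oas1a, Oas3, Bst2, Isg20, Ddx58 and Irf7, were less than 2-fold below day 1, though Oas3 and Ddx58 were also less than 2-fold above day 0. Among all 2551 genes that were at least 2-fold higher on day 1 and measured on each pair of days, 159 (6.23%) were at least 2-fold lower on day 3 than on day 1, and 117 (4.59%) were in addition less than 2-fold above day 0. Whatever the drop from day 1, 17 of the 25 members (68%) and 559 of the 2551 genes (21.9%) were less than 2-fold above day 0 on day 3. These counts rest on the day 1 array both for the selection and for the drop, so a spot read too high on it would enter both. Of the 25 members, 12 have several probes (Oas2, Oas3, Rsad2, Isg20, Ddx58, Ifih1, Dhx58, Irf9, Ifi44, Parp14, Irgm1 and Psmb8), and in each of the 12 every probe was lower on day 3 than on day 1. The day 1 difference was less even across probes. A dimmer probe had a log2 ratio under 1 for day 1 over day 0 in Ddx58 (0.22), Parp14 (0.48), Ifi44 (0.60) and Dhx58 (0.68). In Oas2 (-0.70) and Irgm1 (-0.49) a dimmer probe lay below 0.

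**Figure D2:**
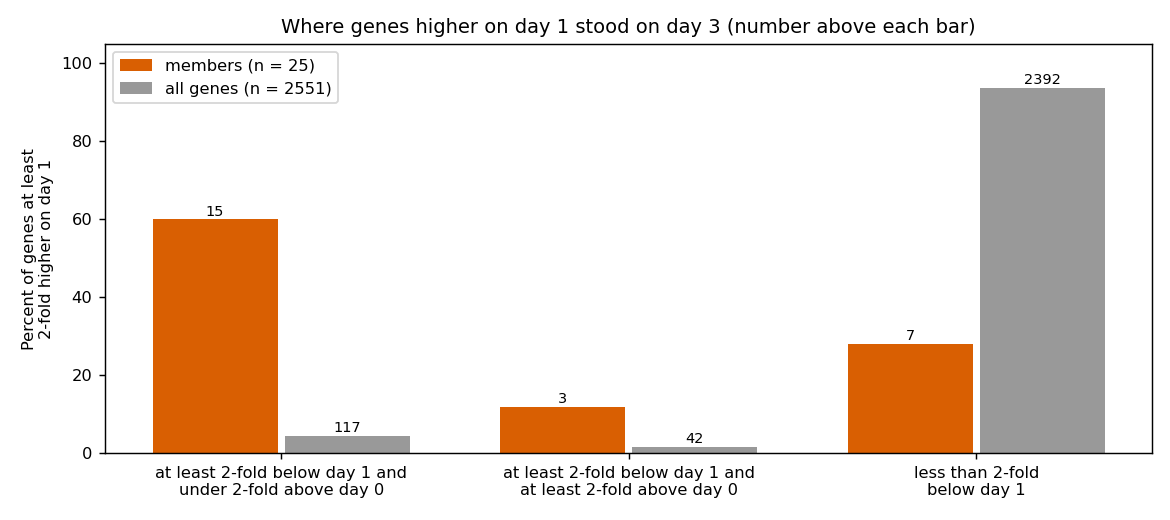
Percent of the genes at least 2-fold higher on day 1 than on day 0 that stood, on day 3, at least 2-fold below day 1 and less than 2-fold above day 0 (left), at least 2-fold below day 1 but still at least 2-fold above day 0 (middle), or less than 2-fold below day 1 wherever they stood against day 0 (right), for the 25 members (orange) and 2551 genes of the array (grey), with the number of genes above each bar. The left class holds 60% of the members and 4.59% of all genes.

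The type I and gamma groups differed on day 1. All 29 type I members had a log2 ratio above 0 for day 1 over day 0 (in Mx1 it takes the other sign in 4 of 11 other settings, and in Oas2 by its dimmer probe), and 22 of them reached 2-fold, with a median of 1.68. Of all 18910 genes measured, 8344 had a ratio above 0. Among the 9 gamma members, Irgm1, Tap1 and Psmb8 were higher by 2-fold or more, Irf1 and Iigp1 were lower by as much, and the median was 0.36, which is -0.05 with scaling to reference genes. That scaling leaves 0 of the 9 and 16 of the 29 higher by 2-fold or more. Among all genes 13.5% were higher and 15.3% lower by as much on day 1, and 7.72% were higher with scaling to reference genes. From day 1 to day 3 the medians were alike, -1.31 for the type I group and -1.24 for the gamma group. In these groups 18 of 29 and 5 of 9 were at least 2-fold lower, against 8.07% of all genes. Set against day 0, 8 type I members (27.6%) were higher and 2 (6.9%) lower on day 3 (median 0.33). Of the gamma members 0 were higher and 3 (33.3%) lower (median -0.58). Among all genes 16.5% were higher and 21.4% lower, and counts as small as those of the gamma group cannot be set apart from these shares. All 9 gamma members had a log2 ratio below 0 for day 3 over day 0, but in Tap1, Psmb8, Psmb9 and Gbp2 it takes the other sign under at least 1 other setting. Of all 19106 genes measured, 10436 had a ratio below 0. The ratios share the day 0 array, and with 1 array per day the difference between the groups was not tested.

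**Figure D3:**
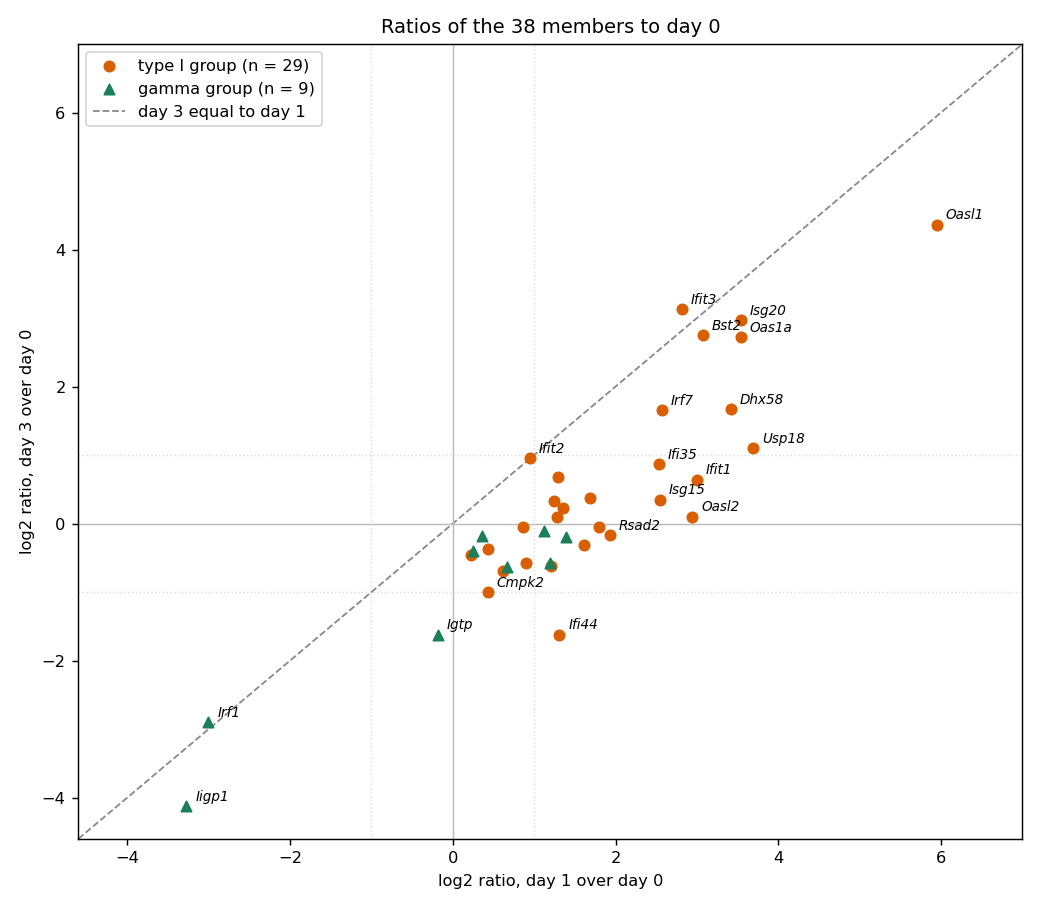
Log2 ratio of day 3 over day 0 against that of day 1 over day 0 for the 29 type I (circles) and 9 gamma (triangles) members, with dotted lines at 2-fold and a dashed line where day 3 equals day 1. Both axes share the day 0 array, and the values of Oas1g on both axes are lower bounds. Most points lie below the dashed line, Ifit3, Ifit2 and Irf1 lie on or above it, and Irf1 and Iigp1 lie at the lower left.

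The start-site windows of the members were searched for both elements. The members were chosen by name as interferon response genes, so their shares of matches do not bear on the day 1 differences. The windows, from RefSeq on GRCm38.p6, run from 250 bases before the annotated start to 50 after it, and 30 of the 38 members had at least 1. Usp18, Oas2, Mx1, Mx2, Dhx58, Zbp1, Iigp1 and Parp14 had none in the table. The ISRE was taken as GAAA, any 2 bases and again GAAA, on either strand, and GAS as TTC, any 3 bases and GAA, which reads the same on both. Where both matched, their letters could overlap, as in Bst2. An ISRE match lay in the windows of 16 of the 30 members (53.3%), against 3.99% of 27025 genes, and a GAS match in 9 (30.0%), against 9.55%. By group, 12 of 22 type I members and 4 of 8 gamma members had an ISRE match, and 6 of 22 and 3 of 8 a GAS match. Of the 15 members at least 2-fold below day 1 and less than 2-fold above day 0, 12 had a window and 6 of these an ISRE match, and of those less than 2-fold below day 1, 5 of 7. Of the members within 2-fold of day 0 on both later days, 7 had a window and 4 of these an ISRE match. A match is a run of letters and was not tested as a binding site.

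Of these, 6 windows are printed, cut to the 160 bases before the start, 5′ to 3′ on the gene's strand, with ISRE and GAS matches in capitals. Isg15 and Ifit1 stand for members that were back near day 0 on day 3, Ifit3 and Bst2 for members that stayed high, Gbp2 for the GTPases and Irf1 for members that were lower on both later days.
Isg15 (chr4:156200819-156200978, minus strand): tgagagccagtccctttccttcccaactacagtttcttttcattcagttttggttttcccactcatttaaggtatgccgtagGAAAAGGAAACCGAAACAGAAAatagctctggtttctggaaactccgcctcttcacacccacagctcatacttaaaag
Ifit1 (chr19:34640729-34640888, plus strand): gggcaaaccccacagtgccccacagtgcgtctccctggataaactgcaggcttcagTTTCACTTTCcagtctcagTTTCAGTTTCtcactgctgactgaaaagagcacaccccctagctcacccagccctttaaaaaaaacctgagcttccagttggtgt
Ifit3 (chr19:34583369-34583528, plus strand): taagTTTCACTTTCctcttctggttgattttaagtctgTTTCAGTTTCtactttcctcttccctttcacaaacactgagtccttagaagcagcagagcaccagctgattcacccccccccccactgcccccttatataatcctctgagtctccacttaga
Bst2 (chr8:71537473-71537632, minus strand): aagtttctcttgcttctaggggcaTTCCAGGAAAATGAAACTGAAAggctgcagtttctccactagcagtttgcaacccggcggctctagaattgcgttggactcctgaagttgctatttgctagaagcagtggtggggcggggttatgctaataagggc
Gbp2 (chr3:142620503-142620662, plus strand): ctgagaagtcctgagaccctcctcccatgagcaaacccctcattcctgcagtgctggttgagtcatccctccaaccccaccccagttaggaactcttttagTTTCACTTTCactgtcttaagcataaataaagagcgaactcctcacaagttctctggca
Irf1 (chr11:53769854-53770013, plus strand): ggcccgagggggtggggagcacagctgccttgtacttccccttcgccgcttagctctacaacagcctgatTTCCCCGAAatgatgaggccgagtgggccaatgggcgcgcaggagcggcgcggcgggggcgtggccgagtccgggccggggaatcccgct
Isg15 holds 3 overlapping ISRE matches, from position -78 to -57 relative to the start. Ifit1 and its neighbour Ifit3 each hold 2 that do not overlap. In Bst2, a GAS match and 2 ISRE matches overlap in 1 run of 22 bases. The Irf1 window printed holds 1 GAS match and no ISRE match, and its other window, at a later start, neither.

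Isg15 is a ubiquitin-like protein that is joined to other proteins after interferon exposure, Usp18 removes it and also damps signalling at the type I receptor, and Trim25 is a ubiquitin ligase that activates the RNA sensor encoded by Ddx58. The scaled signal of Isg15 was 1.77 on day 0, 10.3 on day 1 and 2.25 on day 3, and that of Usp18 was 0.327, 4.23 and 0.703. Both were thus highest on day 1, 5.84-fold and 12.9-fold above day 0, and on day 3 they were 4.59-fold and 6.01-fold below day 1. Usp18, whose probe lies on chromosome 6 at 121220513 to 121220572 (mm9), was still 2.15-fold above day 0 on day 3, a value under 2-fold in 3 of 11 other settings, while Isg15 was 1.27-fold above. Trim25 had 5.65, 7.64 and 4.37 and lay within 2-fold on each pair of days.

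The Ifit genes, whose proteins bind viral RNA, lie side by side on chromosome 19, yet behaved differently on day 3. Ifit1 had scaled signals of 0.349, 2.80 and 0.545 on days 0, 1 and 3, and its probe lies at 34723796 to 34723855 (mm9). It was 8.01-fold higher on day 1 and 5.13-fold lower again on day 3. Ifit3, with its probe at 34663105 to 34663164, had 2.20, 15.5 and 19.2, higher on day 3 than on day 1. It was 7.04-fold higher on day 1 and 8.73-fold on day 3. Ifit2 was 1.92-fold higher on day 1 and 1.94-fold on day 3 by its brighter probe. Its other probe gave log2 ratios of 1.07 and 1.49. Ifit3 was at least 2-fold higher than day 0 on day 3 under every other setting tried, at log2 ratios of 2.96 to 3.56, though some of these settings could not change it. The probe stands for Ifit3 by its accession, and whether it also binds RNA of a close copy was not tested.

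The Oas genes encode enzymes that sense double-stranded RNA and make a messenger that activates RNase L, which breaks down RNA, and some relatives lack the enzyme activity. Oasl1, such a relative, had the largest day 1 difference of all 38 members, with scaled signals of 0.151, 9.29 and 3.10. It was 61.6-fold higher on day 1 and 20.6-fold on day 3, and its probe lies on chromosome 5 at 115387556 to 115387615 (mm9). Its neighbour Oasl2 had 0.352, 2.70 and 0.378, that is 7.68-fold higher on day 1 and 1.07-fold on day 3. Oas1a had 0.172, 1.999 and 1.14, being 11.6-fold higher on day 1 and 6.61-fold on day 3. The day 1 differences of the others were smaller. Oas3 was 2.44-fold higher on day 1 and 1.61-fold on day 3, and Oas2 2.43-fold and 1.06-fold by the probe used. A dimmer probe of Oas2 ran the other way on day 1, with a log2 ratio of -0.70. Oas1g did not reach the level called well above background on day 0 (0.00829). It stood at 0.0209 and 0.0111 on the later days, at least 1.82-fold higher on day 1. The Oas1 genes are close copies of each other, so which copy a probe reads is uncertain.

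Among effectors that act on the virus directly, Bst2, a membrane protein that tethers virus particles to the cell, and Isg20, a nuclease, stayed high. Bst2 had scaled signals of 2.78, 23.3 and 18.7 and was 8.39-fold and 6.74-fold above day 0. Isg20 had 0.143, 1.66 and 1.12, which is 11.7-fold and 7.84-fold. Its second probe gave log2 ratios of 3.36 and 2.28. Others came back. Rsad2, which encodes viperin, an enzyme that makes a chain-terminating nucleotide, had 1.25, 4.74 and 1.11, with 3.80-fold on day 1 and a day 3 level 4.26-fold below that. Ifitm3, a membrane protein that hinders virus entry, had 4.62, 11.8 and 5.39, being 2.56-fold higher on day 1 and 2.19-fold lower again by day 3.

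The Mx GTPase genes and Cmpk2, a nucleotide kinase gene beside Rsad2 on chromosome 12, differed little on day 1. Mx2 was 1.86-fold higher on day 1 and 2.76-fold lower from day 1 to day 3. Mx1 had signals between 0.0335 and 0.0536, and its 2 probes gave log2 ratios of 0.22 and -1.40 for day 1 over day 0, so it has no direction here. Cmpk2 had 0.612, 0.824 and 0.306, a 1.35-fold difference on day 1 and a day 3 level 2.003-fold below day 0, which is under 2-fold in 7 of 11 other settings. Its neighbour Rsad2 was 1.12-fold below day 0 on day 3.

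All 4 sensors were at least 2-fold higher on day 1. Ddx58 (RIG-I) and Ifih1 (MDA5) detect viral RNA in the cytosol, Dhx58 (LGP2) regulates both, and Zbp1 detects left-handed nucleic acid and can start necroptosis. Dhx58 had scaled signals of 0.0998, 1.07 and 0.318, with a 10.7-fold difference on day 1 and 3.18-fold on day 3. Ifih1 had 0.665, 2.13 and 0.863, being 3.21-fold higher on day 1 and 1.299-fold on day 3. Ddx58 was 2.36-fold and 1.26-fold higher by its brightest probe, and its 4 probes ran from 0.22 to 1.74 in log2 ratio for day 1. Zbp1 was 3.06-fold higher on day 1, at 0.236, and on day 3 it stood 3.80-fold below that, at 0.0622. A second probe of Dhx58, built on a cDNA clone and not well above background on day 0, gave a log2 ratio of 0.68 on day 1.

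Of the transcription factors, Irf9 and Stat2 are partners in the complex that type I interferon activates, and Irf7 amplifies interferon alpha production. Irf9 had 1.66, 3.84 and 1.08, a 2.31-fold difference on day 1 and a level 3.54-fold lower again on day 3. Stat2 had 0.738, 1.13 and 0.459, within 2-fold of day 0 on both days and 2.47-fold lower on day 3 than on day 1. Irf7 had 0.159, 0.944 and 0.500, being 5.94-fold higher on day 1 and 3.15-fold on day 3. Irf1, a factor rapidly induced by interferon gamma and by other stimuli, ran against these. It had 48.2, 6.02 and 6.46 and was 8.02-fold lower on day 1 and 7.47-fold lower on day 3. Its second probe gave log2 ratios of -2.61 and -2.33.

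Of the other type I members, Ifi35, Ifi44 and Parp14, a mono-ADP-ribosyl transferase gene, were at least 2-fold higher on day 1. Parp14 had 2.07, 7.21 and 2.01, 3.48-fold higher on day 1 and 1.03-fold lower on day 3 than on day 0. Ifi35 had 1.08, 6.23 and 1.97, a 5.78-fold and then a 1.83-fold difference. Ifi44 showed the largest decline from day 1 to day 3 of all members, 7.62-fold, with 0.533, 1.32 and 0.173. It thus ended 3.08-fold below day 0. Its second probe gave a log2 ratio of 0.60 for day 1 over day 0, which is under 2-fold, and of -2.19 for day 3 over day 0.

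The gamma-type GTPases belong to families in which some proteins attack the membranes around microbes inside cells. Iigp1 had scaled signals of 5.63, 0.583 and 0.323, being 9.66-fold lower on day 1 and 17.4-fold on day 3, the largest decrease of any member. Igtp had 5.18, 4.55 and 1.68, within 2-fold on day 1 and 3.08-fold lower on day 3. Irgm1 had 4.43, 10.1 and 2.96, so it was 2.29-fold higher on day 1 and 3.42-fold lower on day 3 than on day 1. A second probe of Irgm1 gave log2 ratios of 1.32 and -2.06 for these steps, whereas a dim one built on a cDNA clone, not well above background on day 3, gave -0.49 and -1.18. Gbp2 stayed within 2-fold on each pair of days, at 0.736, 0.947 and 0.646. Gbp3 was 1.58-fold higher on day 1 and 2.45-fold lower from day 1 to day 3.

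Tap1, which pumps peptides into the endoplasmic reticulum for display on MHC class I, and the immunoproteasome subunits Psmb8 and Psmb9 lie together on chromosome 17. Psmb8 had 1.40, 3.67 and 1.22, a 2.62-fold difference on day 1, and its other probe gave a like log2 ratio, 1.43 against 1.39. Tap1 had 0.174, 0.379 and 0.161, a 2.18-fold difference. Psmb9 differed by 1.18-fold, at 0.728 and 0.861, and stood at 0.549 on day 3. All 3 were within 2-fold of day 0 on day 3.

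**Figure D4:**
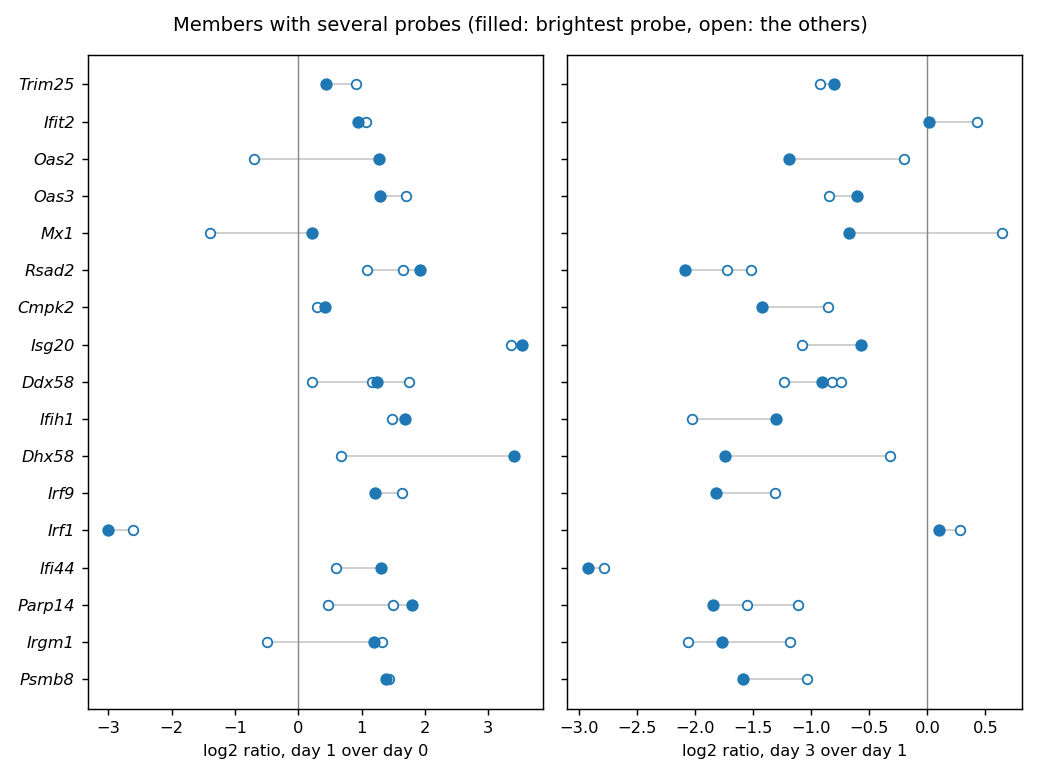
Log2 ratios of day 1 over day 0 (left) and day 3 over day 1 (right) by probe, for the 17 members with several probes, with the brightest probe filled and the others open. The probes of Irgm1, Mx1 and Oas2 take both signs on the left and those of Mx1 on the right, and the other members keep 1 sign in each panel.

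Lists of genes that make and read interferon, without the sensors and transcription factors counted as members, differed less on day 1 than the members. Of 31 interferon, receptor and signalling genes, 25 had a probe tied to them, and 24 of the 25 were measured well above background. Of the 24, 2 were higher by 2-fold or more and 2 lower by as much on day 1, against 13.5% and 15.3% of all genes. Their median log2 ratio, -0.02, takes the other sign with scaling to the median (0.19), to spike-in controls (0.14) or by quantiles (0.05). Interferon beta, Ifnb1, was dim at 0.0274, 0.0601 and 0.0189, where the lowest signals well above background were 0.936% to 1.14% of the 75th percentile. Its signal was 2.19-fold higher on day 1 and 3.17-fold lower from day 1 to day 3. Interferon gamma, Ifng, was dim too, at 0.103, 0.0417 and 0.0294, 2.47-fold lower on day 1 and 3.51-fold on day 3. The 7 interferon alpha probes measured here, which may read more than 1 gene of a family of close copies, were within 2-fold of day 0 on day 1, and Ifna2 was 2.51-fold lower on day 3.

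The receptor genes were present on all days. Ifnar1, of the type I receptor, was 1.42-fold higher on day 1 and 1.63-fold on day 3, and its partner Ifnar2 had 1.72 to 1.73 throughout. Ifngr2, of the gamma receptor, was 3.14-fold and 3.37-fold higher. The inhibitor Socs1 was within 2-fold on each pair of days, whereas Socs3, which answers mainly to cytokines of the Il6 type, went from 55.0 to 7.04 and 7.40. Of 14 further sensors, adaptors and factors upstream of interferon, none was at least 2-fold different on day 1, against 13.5% higher and 15.3% lower among all genes. The 4 sensors that are members are not among the 14. On day 3 Ikbke (3.19-fold) and Sting1 (2.46-fold) were higher and Tlr7 and Tlr9 lower, 14.3% each way, near the 16.5% and 21.4% of all genes.

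**Figure D5:**
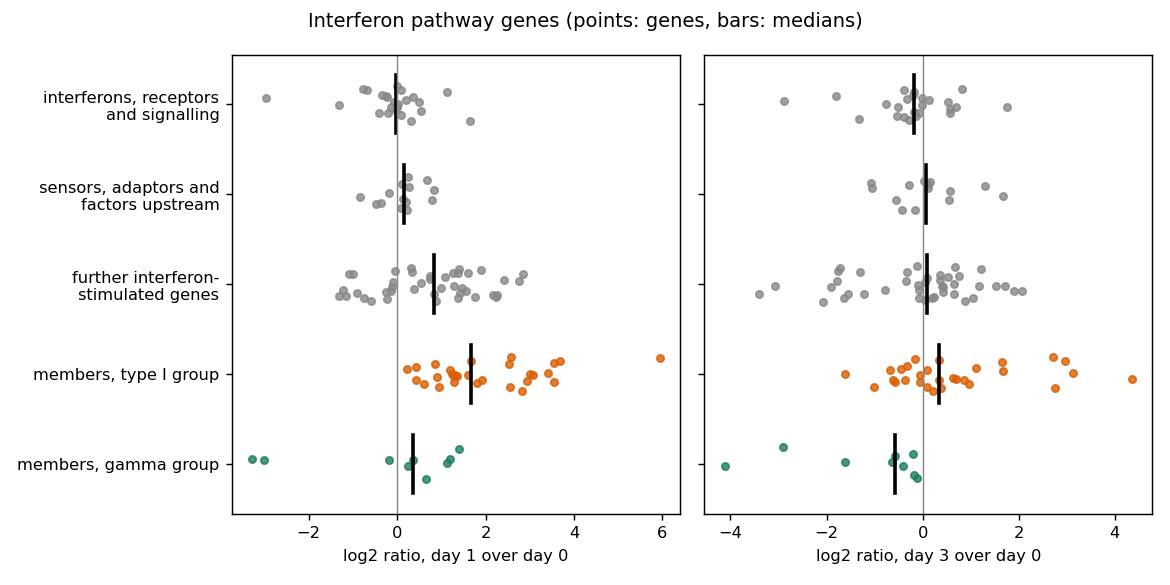
Log2 ratios to day 0 on day 1 (left) and day 3 (right) of the genes in 3 lists of the interferon pathway (grey) and of the members by group (orange and green), 1 point per gene with the median as a bar and vertical jitter for legibility. The medians on day 1 are -0.02 and 0.17 for the upstream lists, 0.85 for further interferon-stimulated genes, 1.68 for the type I members and 0.36 for the gamma members.

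Markers of the cell types a kidney preparation could hold were measured on the same arrays. The 14 proximal tubule markers had a summed scaled signal of 1527 on day 0, 254.5 on day 1 and 35.7 on day 3, and all were at least 2-fold lower on both later days. Genes of the loop and distal tubule were present as well, with sums of 481.9, 99.7 and 19.8 over 6 markers. Sums over 11 macrophage markers were 15.0, 11.4 and 17.8, most of each from Lyz2, and without Lyz2 the other 10 summed to 2.96, 5.26 and 4.42. Of the 11, Cd68 (0.162, 1.98 and 0.822) and Fcgr1 (0.120, 0.283 and 0.124) were at least 2-fold higher on day 1 than on day 0. Ptprc was at least 2-fold lower and the other 8 were within 2-fold. The median log2 ratio of the 11 was 0.07, and 13.5% of all genes were higher and 15.3% lower. Sums over 10 T and NK cell markers were 1.31, 0.711 and 0.693, and Gzma, well above background on day 0 (0.0501), was not on the later days. Ptprc, a gene of all leukocytes, had 0.414, 0.148 and 0.138. The 4 B cell markers summed to 0.742, 0.614 and 0.560, the 4 plasmacytoid dendritic cell markers to 0.505, 0.340 and 0.426, the 7 endothelial ones to 29.9, 16.01 and 5.71 and the 6 fibroblast ones to 5.14, 4.23 and 10.8. Iigp1, Irf1 and Ifng were highest on day 0, as were the tubule, T and NK cell, B cell, plasmacytoid dendritic cell and endothelial sums. The part of these cells in the results was not tested.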

How the data were processed

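Per the labels' protocols, total RNA was extracted with TRIzol, amplified and labelled with Cy3. The arrays were read with Feature Extraction 10.5.1.1 per the file headers, and with 9.1 per the submitters' processing notes. The deposited intensity of a spot is its processed signal, background subtracted and corrected for spatial trends, not normalized between arrays. A multiplicative correction was applied on days 0 and 1 and not on day 3. Per the file headers, the mean, local background and background-subtracted signals are intensities too, and the flags are of other kind. The deposited value table holds a ratio, the processed signal over the array's 75th percentile, within 0.001 for all 43379 spots.

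Here the processed signal was divided by its 75th percentile over non-control spots, which was 1184, 1509 and 1515 intensity units on days 0, 1 and 3. Outlier spots (94, 102 and 85) were left out, no spot was saturated, and log2 signals of spots of a probe were averaged. Probes were named by member name (60), RefSeq accession (26834), symbol (5019) or synonym (832), and 8429 stayed unnamed. The brightest probe stood for its gene. A gene entered a comparison if 1 or both arrays had it well above background, and a probe not well above background on 1 of them gave a bound. Probe positions are on mm9, per the file headers. With 1 array per day, the number of arrays limits the precision and no test was made. Every member could be named, and other genes only from lists of the pathway and of cell markers. The values of 1 listed gene are not reported here. The members and lists were chosen with earlier results of these data known. Ratios were checked on simulated arrays. Python 3.11.15, R 4.3.3 and limma 3.58.1 were used.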

Additional observations from a re-analysis of the deposited data

How the results depend on the processing

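No paired analysis was possible because each day has 1 sample, and for the same reason no replicate could be left out. The median of day 3 over day 0, -0.05, took the other sign with scaling to the median (0.26), quantile normalization (0.15), spike-in scaling (0.38), normexp background correction (0.14), the dimmest probe of each gene (0.11), no filter (0.021) and, chosen after seeing the data, signals without the trend correction (0.14). With reference gene scaling, 16 members were higher on day 1 (median 0.89), 15 of them were lower on day 3 than on day 1, 11 at least 2-fold, and 9 of these 11 were also less than 2-fold above day 0. With spike-in scaling, 12 of the members higher on day 1 were less than 2-fold below it on day 3. Counted from 4-fold, 12 members were higher on day 1, 5 were higher and 2 lower on day 3 than on day 0, 6 were lower on day 3 than on day 1, and of the 12 higher on day 1, 11 were lower on day 3, 4 of them at least 4-fold, and these 4 were back within 4-fold of day 0. The type I minus gamma difference of medians for day 3 over day 1, -0.07, was -0.40 with normexp, -0.38 without the trend correction and 0.092 with the mean of the probes. For single members, Oas2 (-0.70) and Irgm1 (-0.49) took the other sign on day 1 by their dimmest probe. Signals near background, as those of Oas1g and Mx1, limit what their ratios show.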

Other observations

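Interferon-stimulated genes outside the 38 members differed among themselves. Of 41 such genes measured, 18 (43.9%) stood 2-fold or more above day 0 on day 1 and 4 (9.76%) as far below, against 13.5% and 15.3% of all genes. From day 1 to day 3, 16 (39%) were lower by 2-fold or more and 1 (Ciita) higher, against 8.07% and 6.96%. Set against day 0, 7 (17.1%) were higher by 2-fold or more on day 3 and 11 (26.8%) lower by as much, near the 16.5% and 21.4% of all genes. Among the 11 were Ifi203 (10.7-fold), Sp100 (3.44-fold), Ifi27l2a (2.47-fold) and Ifitm1 (2.35-fold). With spike-in scaling the day 3 counts were 12 and 9, against 26.3% and 14% of all genes. Rtp4, which encodes a receptor transporter protein, had scaled signals of 1.83, 12.3 and 2.45 on days 0, 1 and 3. The apoptosis-related gene Xaf1 had 0.424, 2.25 and 0.676, and Ifi204, of the DNA-sensing p200 family, 0.609, 2.28 and 0.630. Each of these was back within 2-fold of day 0 on day 3. The RNA editing gene Adar was 2.95-fold higher on day 1 and 1.17-fold on day 3. Others stayed high. Cxcl10, a chemokine gene that attracts T cells, had 2.24, 10.8 and 9.47, Ly6e, a membrane protein gene, 2.72, 7.15 and 10.1, and Plscr1, a phospholipid scramblase gene, 11.8, 28.5 and 26.8.

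The 7 GTPase genes of that list, relatives of Gbp2, Igtp and Iigp1, all had a log2 ratio below 0 for day 1 over day 0, though in Irgm2 and Gbp5 by less than the 0.21 that scaling to the median adds. Of all 18910 genes measured, 10566 had a ratio below 0. Tgtp1 had 1.33, 0.629 and 0.314, Irgm2 3.56, 3.33 and 0.950, Ifi47 0.428, 0.358 and 0.138, and Gbp4 0.108, 0.0460 and 0.0129. Gbp6 was 2.23-fold lower on day 1 and 3.28-fold on day 3, and Gbp2b 2.49-fold and 3.38-fold. Gbp5 stayed within 2-fold, between 0.575 and 0.631. Cxcl9, a chemokine gene known to answer mainly to interferon gamma, was dim, at 0.0407, 0.0271 and 0.0140. Other genes of the list ran the other way. Against 8344 of all 18910 genes, 27 of the 41 had a log2 ratio above 0 for day 1 over day 0. Among these, the immunoproteasome subunit gene Psmb10 was 3.38-fold higher on day 1 and 2.08-fold on day 3. Ifi30 was 2.69-fold higher on day 1, Tapbp 1.999-fold and Cxcl11, which was dim, at least 4.47-fold.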
